A study of Sus scrofa with 27 samples.

Results

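The proteasome subunit genes were the protein-coding rows of the gene table whose gene name was PSM, a letter from A to G and a number, which gave 42 of the 31908 rows. They encoded the alpha ring of the 20S core (6 genes), its structural beta subunits (4), the constitutive catalytic subunit PSMB7, the thymus-specific subunit PSMB11, the ATPases (6) and the other subunits (11) of the 19S regulatory particle, assembly factors (5), and PSME3, PSME4 and PSMF1, which bind the core. The remaining 5, PSMB8, PSMB9, PSMB10, PSME1 and PSME2, encode the immunoproteasome and its activator, and they were set against the other 37. Of the 42 members, 40 had enough counts to be tested in every comparison. PSMA8, the alpha subunit of the testis, was at 0 counts in all 27 libraries, and PSMB11 did not exceed 4 counts in any. Rows for PSMA1, PSMA2, PSMB6 and PSMD9 carried a description but no gene name. They fell outside the rule and are given only where a member is set against them. PSMB5 and PSMG1 were not analysed here.

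The libraries came from lungs of Large-White pigs, taken after circulatory arrest, kept cold for 1h and then perfused outside the body for 12h (ex vivo lung perfusion, EVLP) with an acellular albumin solution that contained methylprednisolone, cefuroxime and heparin in both groups. In the Gold Standard group (GS, 5 pigs) part of the solution was replaced every 2h, and in the Pediatric Dialysis group (PD, 4 pigs) a pediatric hemodialyzer was placed on the circuit. Each lung was biopsied at 0h (after the cold period and before perfusion), at 6h and at 12h, which gave 15 GS and 12 PD libraries. The study states that the PD lungs also served in an earlier study at 6h, while the GS lungs were a distinct set. No lung was sampled without perfusion at 6h or 12h, so time on the circuit and the perfusate management of a group cannot be separated from time since death, and all the lungs received the glucocorticoid methylprednisolone. The question put to the data was how the proteasome genes changed from 0h within each group, and whether the change differed between PD and GS.

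The proteasome degrades proteins tagged with ubiquitin. Its 20S core is a barrel of stacked alpha and beta rings with the cutting sites inside, and the 19S particle at its ends recognises, unfolds and feeds the tagged protein into it. Under interferon, and constitutively in leukocytes, PSMB8, PSMB9 and PSMB10 replace the catalytic subunits PSMB5, PSMB6 and PSMB7, and the PSME1-PSME2 cap (PA28) is produced, which favours peptides that fit MHC class I molecules. When proteasome activity falls short, the transcription factor NRF1, encoded by NFE2L1, is known to raise the genes of the 20S and 19S subunits together.

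The GS libraries held 26335584 to 67522703 counts (median 53623755) and the PD libraries 14650700 to 21820935 (median 19344265). A level of 3 counts corresponded to at most 0.114 CPM (counts scaled to a library of 1000000) in GS and 0.205 CPM in PD, and the lowest count of an immunoproteasome gene in any library was 124. The alveolar epithelial markers were present in every library, and the label lung was not contradicted. Their sum was 7945 to 10734 CPM in GS and 27380 to 78186 CPM in PD at 0h. A pair of PD libraries stood apart. The 12h library of pig 2 had the lowest total, 1.65% of its counts from mitochondrial genes against 4.97% to 11.6% in the other PD libraries, and an epithelial sum of 91931 CPM. The 0h library of pig 4 had an epithelial sum of 78186 CPM and an immunoproteasome sum of 902 CPM. Some results of the PD group are therefore also given without them. In GS, the 0h, 6h and 12h libraries of pig 17 had 2.41%, 3.14% and 2.41% of their counts from mitochondrial genes. The other GS libraries had 5.74% to 9.49%. Pigs 9 and 17 had 26335584 to 41802541 counts, and the other GS pigs 51708598 to 67522703.

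The sequence upstream of the gene is shown for the 3 immunoproteasome subunits that moved in GS and for PSMD12, the member with the largest change. Each run is the 300 bases before the gene start in the RefSeq annotation of Sscrofa11.1, read 5′ to 3′ on the strand of the gene. PSMB8 lies at chr7:25061667-25061966 on the minus strand, PSMB9 at chr7:25071833-25072132 on the plus strand, PSMB10 at chr6:28547610-28547909 on the minus strand and PSMD12 at chr12:13730073-13730372 on the minus strand. All 4 windows lie upstream of the RefSeq models but inside the longer Ensembl models on which the counts were made. Capitals mark a match to the interferon-gamma activated element GAS (TTCNNNGAA) or to the interferon-stimulated element ISRE (GAAA, any 2 bases, GAAA) on either strand.
PSMB8: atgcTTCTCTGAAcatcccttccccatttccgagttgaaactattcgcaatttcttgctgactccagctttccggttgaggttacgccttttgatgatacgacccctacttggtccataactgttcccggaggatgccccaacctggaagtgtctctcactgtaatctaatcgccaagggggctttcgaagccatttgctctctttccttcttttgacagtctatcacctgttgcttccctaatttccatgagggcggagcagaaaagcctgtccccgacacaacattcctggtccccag
PSMB9: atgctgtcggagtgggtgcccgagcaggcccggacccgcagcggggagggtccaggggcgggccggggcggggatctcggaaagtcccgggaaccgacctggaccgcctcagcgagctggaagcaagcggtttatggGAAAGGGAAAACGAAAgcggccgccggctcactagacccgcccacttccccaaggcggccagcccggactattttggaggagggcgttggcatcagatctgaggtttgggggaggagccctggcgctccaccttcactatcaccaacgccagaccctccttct
PSMB10: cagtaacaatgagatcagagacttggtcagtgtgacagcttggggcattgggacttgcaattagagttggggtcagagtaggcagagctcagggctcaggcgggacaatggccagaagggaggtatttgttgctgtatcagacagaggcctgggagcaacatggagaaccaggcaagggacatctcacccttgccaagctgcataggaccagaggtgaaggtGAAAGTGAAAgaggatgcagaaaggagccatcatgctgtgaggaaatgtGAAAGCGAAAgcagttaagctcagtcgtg
PSMD12: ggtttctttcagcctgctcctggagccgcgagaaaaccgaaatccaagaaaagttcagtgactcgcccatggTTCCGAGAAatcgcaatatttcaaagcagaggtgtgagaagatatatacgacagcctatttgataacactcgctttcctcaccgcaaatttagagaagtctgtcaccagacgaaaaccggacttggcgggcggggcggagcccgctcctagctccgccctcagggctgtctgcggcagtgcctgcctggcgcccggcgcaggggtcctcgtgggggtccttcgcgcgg
PSMB9 and PSMB10 each held 2 ISRE matches. Those of PSMB9 began 163 and 157 bases before the start and overlapped, and those of PSMB10 began at 78 and 29 bases. PSMB8 held no ISRE match but a GAS match 296 bases upstream, and PSMD12 held a GAS match at 228 bases. Among the 42 member windows, 4 (9.52%) held an ISRE match, against 3.69% of the 19556 windows of all protein-coding genes, and the other members with a match were PSMA4 and PSMC4. A GAS match was found in 6 member windows (14.3%) against 7.45% of all windows. The core of the antioxidant response element (ARE), TGACNNNGC, to which NRF1 can bind, was in 2 member windows (4.76%, PSMC5 and PSMD14) against 11.6% of all, and the heat shock element (GAA, any 2 bases, TTC, any 2 bases, GAA) was in 0 against 0.389% of all. These counts describe letters in a window and not binding.

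Before perfusion, PSMB8 and PSMB10 were among the more abundant members in GS, and PSMB9 lay near the middle. Per kilobase of exon, the scale on which genes can be set against each other, the mean level at 0h was 69.3 ± 4.84 CPM per kb for PSMB8 (SD, n = 5), 64.2 ± 14 for PSMB10, 45.1 ± 6.82 for PSMB7 and 40.7 ± 4.63 for PSMB9. PSMB8 and PSMB10 did not differ beyond their spread, nor did PSMB7 and PSMB9. The highest member was PSMA6, an alpha-ring subunit, at 87.8 ± 8.71 CPM per kb, and the lowest of those tested was PSMG2, a chaperone of alpha-ring assembly, at 5.6 ± 1.72. In GS the PA28 genes were far lower than these catalytic subunits, with 19.7 ± 2.43 CPM per kb for PSME2 and 7.62 ± 1.37 for PSME1. In PD at 0h this held for PSME1 (13.9 ± 3.36, SD, n = 4) but not for PSME2 (107 ± 79). There PSMB8 was at 183 ± 95.5, PSMB10 at 96 ± 47.3, PSMB9 at 84.6 ± 36.1 and PSMB7 at 65.3 ± 22.6. PSME2 did not differ from these beyond its spread.

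In GS, the 3 catalytic immunoproteasome subunits fell during EVLP while much of the constitutive machinery rose, though the call of PSMB8 was lost in many other fits. At 6h, 3 of the 40 members tested were lower and 16 higher than at 0h (adjusted p under 0.05). Over all 18594 genes tested, 14.9% were lower and 13.6% higher. At 12h, 4 members were lower and 22 higher, against 20.8% and 17.6% of all genes. The median log2 fold change of the 40 members was 0.23 at 6h and 0.32 at 12h, against -0.05 and -0.08 over all genes. Both comparisons share the 0h libraries. Only 2 members, PSMD12 and PSME4, also met the 2-fold threshold of the study, at 6h as at 12h, against 5.5% and 6.99% of all genes in that direction. The other called changes were smaller than 2-fold.

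PSMB8, the chymotrypsin-like immunosubunit, had levels in GS pigs 9, 17, 44, 55 and 77 of 91.9, 78.5, 88.4, 81.3 and 79.7 CPM at 0h, of 69.2, 66.1, 51.6, 65.6 and 66.2 CPM at 6h, and of 77, 46.9, 68.1, 70.7 and 69.6 CPM at 12h. Every pig was lower at 6h and at 12h than at its own 0h, and neither later group overlapped with 0h. The log2 fold change was -0.41 (SE 0.13, adjusted p = 0.0296) at 6h and -0.38 (SE 0.13, adjusted p = 0.0315) at 12h. These calls were narrow. Where the call was lost, the log2 fold change was still -0.43 to -0.31 at 6h and -0.41 to -0.29 at 12h. Without pig 9, 44, 55 or 77 the adjusted p at 6h was 0.0885, 0.145, 0.0695 or 0.0728, and at 12h it lay between 0.0591 and 0.107 whichever of the 5 pigs was left out. The call was also lost at 6h and 12h with no low-count filter (0.0541 and 0.0664), no pairing by pig (0.125 and 0.132) and 1 fit of all libraries (0.353 and 0.369), and at 12h by DESeq2 (0.05) and with its size factors (0.0607).

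PSMB9, the immunosubunit that takes the place of PSMB6, stood at 51.7, 46.6, 41.7, 38.3 and 43.9 CPM at 0h in the same order of pigs, at 29.9, 29, 21.9, 31.6 and 34.4 CPM at 6h, and at 30.2, 22.6, 32, 27.8 and 40.9 CPM at 12h. The 6h group lay wholly below the 0h group, and at 12h pig 77 alone reached the 0h range. The fold change was -0.62 on the log2 scale at 6h (SE 0.15, adjusted p = 0.00962), or 1.54-fold lower, and -0.58 at 12h (SE 0.15, adjusted p = 0.00938). Leaving out pig 44 at 6h, or pig 9 or 17 at 12h, moved the adjusted p to 0.051, 0.0512 and 0.0504.

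PSMB10, the trypsin-like immunosubunit, had 55.1, 44.4, 80.2, 67 and 69.1 CPM at 0h, 40.4, 35, 45.4, 49.3 and 50.3 CPM at 6h, and 42.9, 29.5, 58.8, 59.7 and 49.2 CPM at 12h. The pigs differed at 0h, so the groups overlapped, but each pig was lower at 6h and at 12h than at its own 0h. The log2 fold change was -0.51 (SE 0.11, adjusted p = 0.00621) at 6h and -0.44 (SE 0.11, adjusted p = 0.00914) at 12h, and the call was kept whichever pig was left out. It was lost without the pairing of libraries by pig, where the adjusted p was 0.114 at 6h and 0.164 at 12h, and in 1 fit of all libraries (0.321 and 0.372).

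The PA28 genes did not follow. PSME2 had 20.1, 16.9, 14.7, 16 and 15.8 CPM at 0h, 20.4, 18.2, 14.1, 15.7 and 17.2 CPM at 6h and 26.4, 14, 23.3, 16.9 and 19.2 CPM at 12h, with log2 fold changes of 0.02 (SE 0.15, adjusted p = 0.928) and 0.21 (SE 0.15, adjusted p = 0.285). PSME1 had 5.09, 7.59, 8.1, 7.78 and 8.43 CPM at 0h, 4.29, 10.1, 9.42, 6.51 and 9.76 CPM at 6h, and 5.96, 9.22, 11.1, 7.86 and 11.1 CPM at 12h, with log2 fold changes of 0.06 (SE 0.15, adjusted p = 0.798) and 0.24 (SE 0.15, adjusted p = 0.222). Neither gene was called. PSME1 was nonetheless above its own 0h value at 12h in all 5 pigs, by log2 ratios of 0.02 to 0.45.

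**Figure D1:**
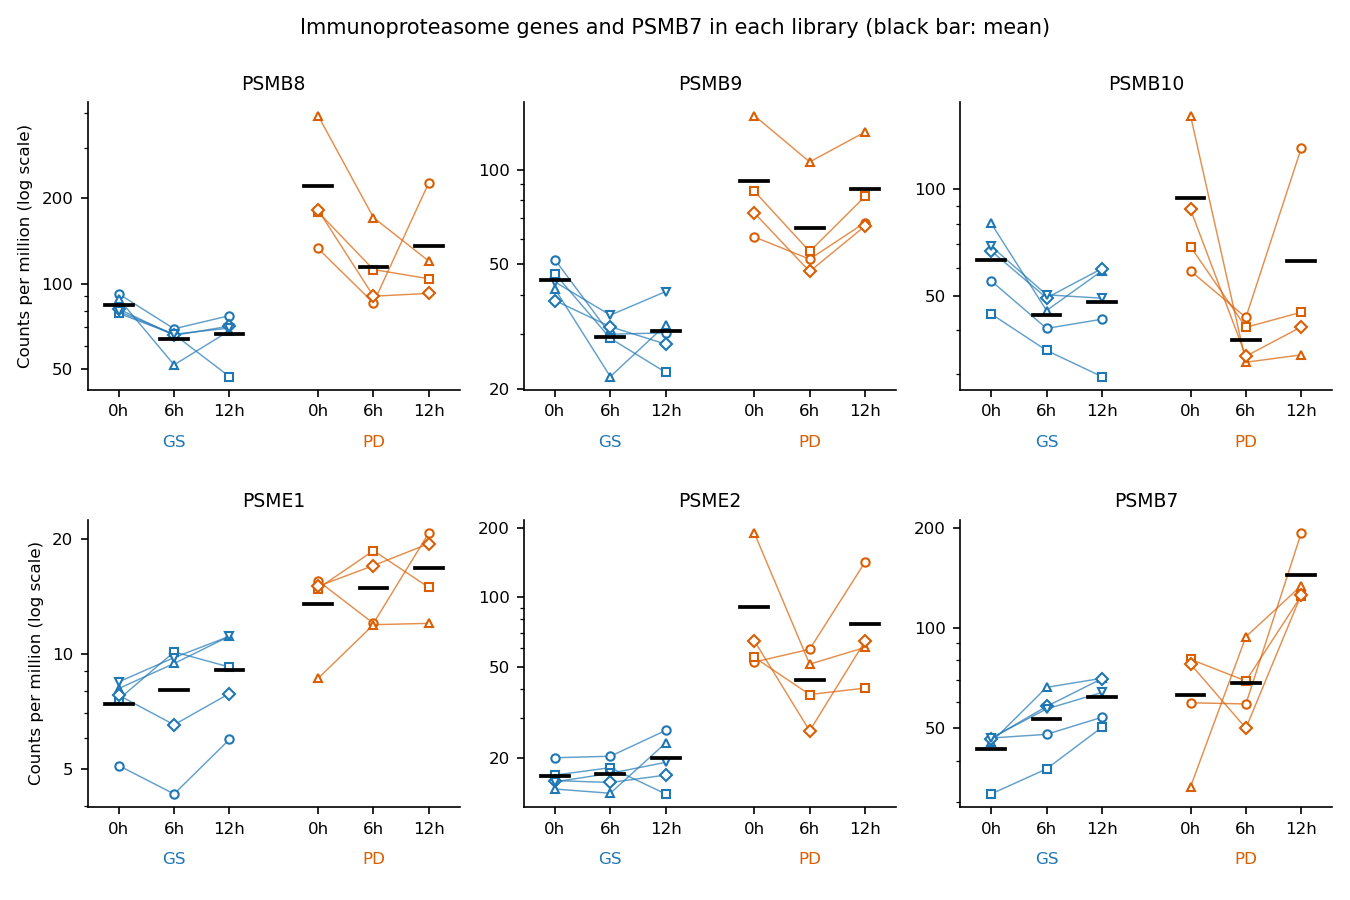
Level of the 5 immunoproteasome genes and of PSMB7 in each of the 27 libraries, in CPM on a log axis, by group (GS blue, PD orange) and time. Each line joins the libraries of 1 pig and the black bar is the mean. In GS, all 5 lines of PSMB8, PSMB9 and PSMB10 go down from 0h to 6h and all 5 of PSMB7 go up. In PD, the highest 0h value of PSMB8, PSMB9, PSMB10 and PSME2 is that of pig 4.

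PSMB7, whose place in the core PSMB10 takes, had 46.8, 31.8, 45.4, 46.6 and 46.8 CPM at 0h, 48, 37.8, 66.4, 58.2 and 57.2 CPM at 6h, and 54, 50.4, 70.7, 70.5 and 64.1 CPM at 12h. All 5 pigs were higher at 6h (log2 fold change 0.27, SE 0.11, adjusted p = 0.0685, and 0.0279 without pig 9) and PSMB7 rose at 12h (0.48, SE 0.11, adjusted p = 0.00391). The call at 12h was lost without the pairing by pig (0.47, adjusted p = 0.0796) and in 1 fit of all libraries (0.51, adjusted p = 0.142). The log2 ratio of PSMB10 to PSMB7 within a library was 0.24 to 0.82 at 0h, -0.55 to -0.11 at 6h and -0.77 to -0.24 at 12h in GS. It was above 0 in every GS library before perfusion and below 0 in every later one. For PSMB9 and the described row of PSMB6 the ratio was -0.78 to 0.15 at 0h, -2.19 to -0.89 at 6h and -1.69 to -0.79 at 12h. PSMB6 itself rose by 0.32 (SE 0.11, adjusted p = 0.04) at 6h and by 0.31 (SE 0.11, adjusted p = 0.0362) at 12h.

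Summed over the 5 genes, the immunoproteasome level in GS was 216 ± 14.8 CPM at 0h (SD, n = 5), 162 ± 13.5 at 6h and 174 ± 29.4 at 12h, and the sum of the other members was 1969 ± 125, 2638 ± 193 and 3054 ± 405 CPM. As a percentage of the other members, the immunoproteasome genes went from 10.3% to 12.3% at 0h to 5.49% to 7.03% at 6h and 3.6% to 7.75% at 12h. The 0h range did not overlap with either later range. In PD the percentage was 8.45% to 21.4% at 0h, 4.41% to 7.63% at 6h and 4.32% to 7.22% at 12h, again without overlap with 0h. The PD sums were 512 ± 264, 276 ± 67.9 and 379 ± 144 CPM for the immunoproteasome genes (SD, n = 4) and 4019 ± 198, 4358 ± 1417 and 7190 ± 1208 CPM for the others. In all 4 PD pigs, as in all 5 GS pigs, the percentage was lower at 6h and at 12h than at 0h. In PD pig 2 at 12h this came with a higher immunoproteasome sum (588 against 321 CPM at 0h) and a larger difference in the others (8143 against 3798 CPM). Without the 0h library of pig 4 the PD percentages at 0h were 8.45%, 9.72% and 10.8%.

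**Figure D2:**
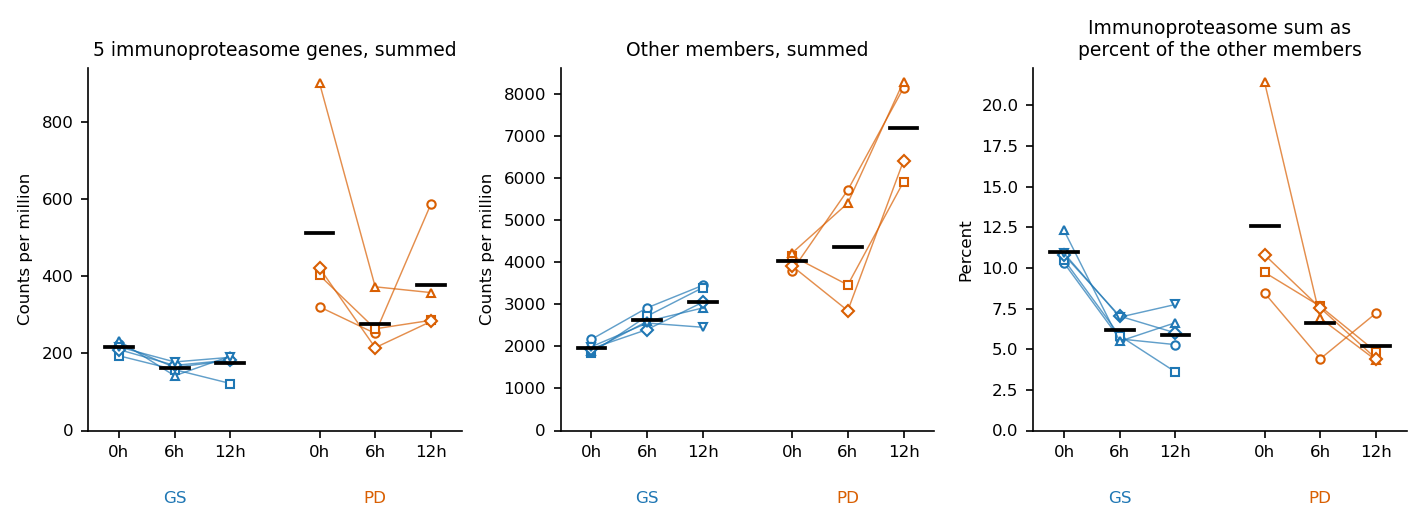
Summed level of the 5 immunoproteasome genes (left) and of the other members (middle), in CPM, and the immunoproteasome sum as a percentage of the other members (right), in each library. Lines join the libraries of 1 pig (GS blue, PD orange) and black bars are means. The percentage at 0h lies above every value at 6h and 12h in both groups.

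Leukocytes express the immunoproteasome genes constitutively, so leukocyte markers are given first. Of 12 markers tested in GS, 2 fell at 6h and 3 at 12h, and 0 rose, with a median log2 fold change of -0.13 and -0.09, where 14.9% and 20.8% of all genes were lower. The genes that fell were PTPRC (CD45, carried by all leukocytes) at -0.57 (SE 0.13, adjusted p = 0.00844) and -0.79 (SE 0.13, adjusted p = 0.000876), CD2 of T and NK cells at -0.91 (SE 0.16, adjusted p = 0.00167) and -1.20 (SE 0.16, adjusted p = 0.000233), and at 12h the T cell gene CD3E at -0.60 (SE 0.17, adjusted p = 0.0145). The macrophage receptor CD163 was not called at either time. The summed level of the 12 markers was 2392 to 4358 CPM at 0h, 2252 to 3973 at 6h and 2353 to 3934 at 12h, and all 12 were detected. Of 9 alveolar epithelial markers, 2 rose at 6h and 3 at 12h and 0 fell, where 13.6% and 17.6% of all genes rose, with EPCAM at 1.09 and 1.58 and CDH1 at 0.98 and 1.24, and their sum was 9607 ± 1055 CPM at 0h (SD, n = 5), 10999 ± 3020 at 6h and 13398 ± 3641 at 12h. Of 6 endothelial markers, 2 fell at both times, TEK (-0.50 and -0.62) and KDR (-1.15 and -0.96), and PECAM1 rose at 12h (0.44), with a sum of 2402 ± 294, 2316 ± 675 and 2482 ± 515 CPM. Of the 2 red blood cell markers tested, the globin gene HBB fell at both times (-1.57 and -1.50) and ALAS2 was not called (-0.81 and -0.44). Of 6 fibroblast and smooth muscle markers, MYH11 alone fell (-0.61 and -0.63). The part of cell content in the fall of PSMB8, PSMB9 and PSMB10 and in the rise of other members was not tested, and in such bulk samples fewer cells of a type and less RNA per cell cannot be told apart.

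Outside the immunoproteasome, members of every class with more than 1 gene tested rose in GS, where 13.6% of all genes rose at 6h and 17.6% at 12h, with medians of -0.05 and -0.08. Of the 11 subunits of the 19S regulatory particle that are not ATPases, 6 rose at 6h and 7 at 12h, and 0 fell, with a median log2 fold change of 0.50 and 0.68. PSMD12 (Rpn5), a scaffold of the 19S lid, had 53.1, 51.4, 32.2, 37.6 and 40.2 CPM at 0h, 102, 106, 90.6, 93.9 and 112 CPM at 6h, and 98.9, 146, 149, 146 and 110 CPM at 12h. Every later library was above every 0h library. The increase was 2.35-fold at 6h (log2 fold change 1.23, SE 0.16, adjusted p = 0.000412) and 2.99-fold at 12h (1.58, SE 0.16, adjusted p = 6.55e-05). In 1 fit of all libraries the call at 6h was lost (1.25, adjusted p = 0.0504).

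PSMD2 (Rpn1), which receives ubiquitin and its shuttles at the base of the particle, had 188, 151, 152, 160 and 168 CPM at 0h, 263, 253, 246, 193 and 249 CPM at 6h, and 360, 325, 306, 323 and 236 CPM at 12h. No later library fell within the 0h range. It rose by 0.54 (SE 0.12, adjusted p = 0.00602) and by 0.88 (SE 0.12, adjusted p = 0.000265). The lid subunits PSMD3 (Rpn3) and PSMD7 (Rpn8, the partner of the deubiquitinase PSMD14) rose by 0.50 (SE 0.13, adjusted p = 0.0108) and 0.58 (SE 0.12, adjusted p = 0.00532) at 6h and by 0.88 (SE 0.13, adjusted p = 0.00035) and 0.82 (SE 0.13, adjusted p = 0.000483) at 12h. For PSMD7 the 0h values were 79.5, 48.2, 58.5, 69.6 and 68.8 CPM, and those at 12h were 144, 120, 109, 114 and 97.5 CPM. The 12h values lay above all those at 0h. For PSMD3 the 0h values were 69.8, 81.3, 81.7, 88.8 and 89.8 CPM, and those at 12h were 116, 203, 172, 170 and 125 CPM, which again did not overlap. PSMD3 at 6h lost its call without pig 44 (adjusted p = 0.0682), as did PSMD11 (adjusted p = 0.0651). Without the pairing by pig, PSMD3, PSMD7 and PSMD11 lost their calls at 6h (0.51 to 0.58, adjusted p of 0.0607 to 0.0795). In 1 fit of all libraries PSMD2, PSMD3, PSMD7 and PSMD11 did so at 6h (0.52 to 0.59, adjusted p of 0.0872 to 0.27). PSMD11 lost its call at 12h in that fit too (0.72, adjusted p = 0.0874).

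PSMD11 (Rpn6), which clamps the lid to the core, had 98, 71.7, 94.1, 85.9 and 89.9 CPM at 0h, 133, 92.5, 153, 121 and 132 CPM at 6h, and 162, 133, 150, 172 and 106 CPM at 12h. Each pig was higher at both times, with log2 fold changes of 0.50 (SE 0.13, adjusted p = 0.0122) and 0.68 (SE 0.13, adjusted p = 0.00163). PSMD8 rose at both times and PSMD6 at 12h. PSMD1, PSMD4, PSMD13 and PSMD14 did not pass the test at either time, with log2 fold changes between -0.05 and 0.31. The deubiquitinase PSMD14 was at 0.13 (SE 0.17) at 6h and at 12h.

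Among the 6 ATPases that unfold substrates, 2 rose at 6h (PSMC1 and PSMC2) and 5 at 12h, all but PSMC4. PSMC1 (Rpt2), whose tail opens the gate of the core, had 68.2, 52.4, 67.4, 71.7 and 74.9 CPM at 0h, 118, 89.4, 110, 101 and 97.9 CPM at 6h, and 134, 122, 124, 138 and 92.2 CPM at 12h. The ranges at 6h and 12h lay above the range at 0h. The change was 0.61 (SE 0.13, adjusted p = 0.00411) at 6h and 0.83 (SE 0.13, adjusted p = 0.000469) at 12h. In 1 fit of all libraries the call at 6h was lost (0.62, adjusted p = 0.0534).

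In the 20S core, 3 of the 5 alpha subunits tested rose at 6h (PSMA4, PSMA5 and PSMA6, by 0.35 to 0.43) and 4 at 12h (these and PSMA3, by 0.48 to 0.58), while PSMA7 was at 0.23 (SE 0.10, adjusted p = 0.0943) and 0.20 (SE 0.10, adjusted p = 0.124). Of the 4 structural beta subunits, PSMB3 and PSMB4 rose at both times. PSMB4, the last beta subunit to join the ring, did so by 0.48 (SE 0.10, adjusted p = 0.00447) and 0.63 (SE 0.10, adjusted p = 0.000642). PSMB1 and PSMB2 had log2 fold changes of 0.01 to 0.09. PSMB3 had 26.5, 28.6, 24.2, 20.4 and 21.9 CPM at 0h and 32.8, 44.3, 33.6, 29.9 and 29.3 CPM at 6h. The groups did not overlap, but the call at 6h was lost without pig 17, 44 or 55 (adjusted p = 0.0855, 0.106 and 0.0881). It was also lost at 6h without the pairing by pig (0.47, adjusted p = 0.212) and in 1 fit of all libraries (0.47, adjusted p = 0.291). The same held with a trend on exon length and GC content taken out (0.34, adjusted p = 0.0837). At 12h the call was lost in 1 fit of all libraries (0.69, adjusted p = 0.0801).

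The alternative activators rose and the inhibitor fell. PSME4 (PA200), a nuclear cap that acts without ATP, had 66.2, 83.7, 46.9, 40.5 and 54.6 CPM at 0h, 210, 232, 84.8, 70.2 and 115 CPM at 6h, and 277, 342, 125, 124 and 80.4 CPM at 12h. Pigs 9 and 17 were highest at every time. The groups overlapped but each pig was above its own 0h value, and the increase was 2.21-fold at 6h (log2 fold change 1.15, SE 0.20, adjusted p = 0.00166) and 2.86-fold at 12h (1.51, SE 0.20, adjusted p = 0.000225). PSME3 (PA28 gamma), the nuclear relative of PSME1 and PSME2 that interferon does not induce, had 86.8, 53.4, 86.3, 87.3 and 81.5 CPM at 0h, 138, 75.9, 143, 120 and 142 CPM at 6h, and 124, 100, 136, 177 and 114 CPM at 12h. It was higher in each pig, with log2 fold changes of 0.63 (SE 0.13, adjusted p = 0.00354) and 0.69 (SE 0.13, adjusted p = 0.0013). Without the pairing by pig, PSME3 (0.63, adjusted p = 0.0685) and PSME4 (1.28, adjusted p = 0.0643) lost their calls at 6h. In 1 fit of all libraries PSME3 lost its call at 6h (0.64, adjusted p = 0.132) and at 12h (0.73, adjusted p = 0.0633). PSMF1 (PI31), known as an inhibitor of the isolated core, was at -0.28 (SE 0.11, adjusted p = 0.0806) at 6h and fell by 0.37 (SE 0.11, adjusted p = 0.0194) at 12h. Of the 5 assembly factors, PSMD10 (gankyrin) alone rose, by 0.57 (SE 0.14, adjusted p = 0.0112) and 0.75 (SE 0.14, adjusted p = 0.00175), and PSMG2, PSMG3, PSMG4 and PSMD5 lay between -0.15 and 0.20.

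Between 6h and 12h in GS, edgeR called 0 of the 40 members, as it called 0% of all genes. At an unadjusted p under 0.05 there were 4 members, against 4.74% of all genes, and DESeq2 called 0. The median difference of the members was 0.15, with 35 of 40 above 0.

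**Figure D3:**
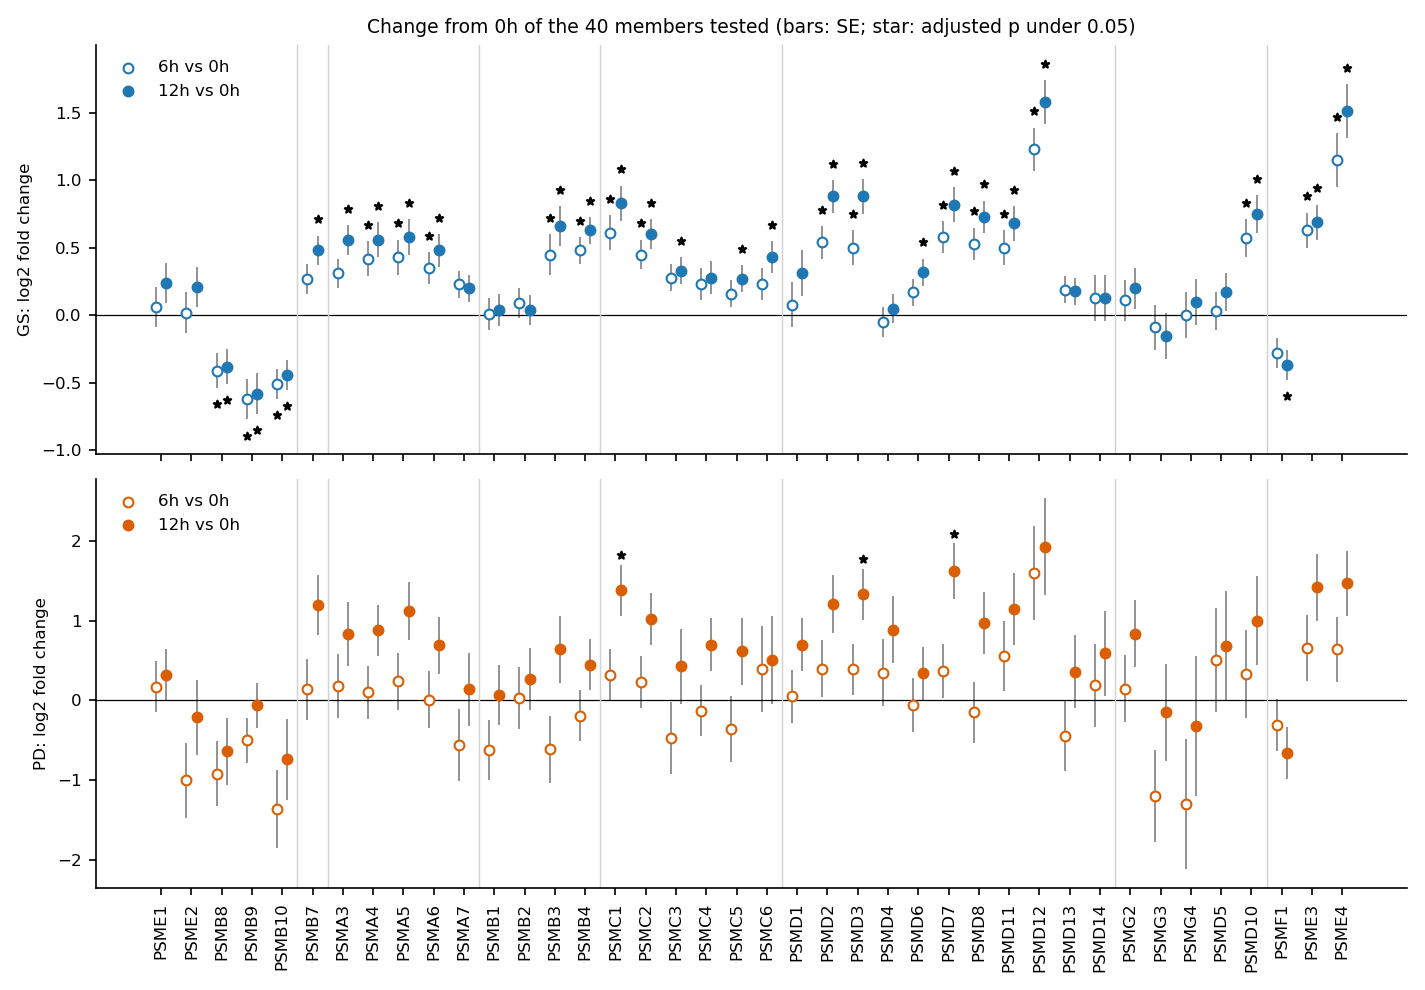
Log2 fold change from 0h at 6h (open) and 12h (filled) of the 40 members tested, in GS (top) and PD (bottom), ordered by class from the immunoproteasome genes at the left to the activators and PSMF1 at the right. Bars are standard errors and stars mark an adjusted p under 0.05. PSMB8, PSMB9 and PSMB10 carry stars below 0 in GS, most stars above 0 are in the 19S genes, and the bars of PD are wider than those of GS.

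In PD the libraries scattered more widely around the fit. The biological coefficient of variation over all genes tested, with pig and time fitted, was 0.489 in the PD fit and 0.259 in the GS fit. At 6h, edgeR and DESeq2 each called 0 of the 40 members, against 0.135% of all 15545 genes higher and 0.00643% lower by edgeR, and 3 members had an unadjusted p under 0.05, against 9.41% of all genes. At 12h, 3 members rose, PSMD7, PSMC1 and PSMD3, against 3.22% of all genes, and 0 fell, against 2.76%. DESeq2 called 12 members higher, against 9.44% of all genes, and 1 fit of all 27 libraries called 17, against 11.2%. A further count at an unadjusted p under 0.05 gave 13 members, against 24.5% of all genes. The median log2 fold change of the 40 members at 12h was 0.68, against -0.05 over all genes.

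PSMD7 had 79.9, 86.1, 99 and 86.2 CPM at 0h in PD pigs 2, 3, 4 and 5, 142, 85.6, 201 and 63.8 CPM at 6h, and 353, 204, 285 and 263 CPM at 12h. At 6h pigs 2 and 4 were above their 0h values and pigs 3 and 5 below, and at 12h all 4 were above the whole 0h range. The increase at 12h was 3.08-fold (log2 fold change 1.62, SE 0.35, adjusted p = 0.0281). PSMC1 had 73.3, 91.3, 63.2 and 95 CPM at 0h and 186, 228, 238 and 198 CPM at 12h, a 2.6-fold increase (1.38, SE 0.32, adjusted p = 0.0329). PSMD3 had 83.7, 80.8, 54.4 and 92.4 CPM at 0h and 207, 217, 171 and 184 CPM at 12h, a 2.52-fold increase (1.33, SE 0.32, adjusted p = 0.0362). For both, the 12h range lay above the 0h range. All 3 calls were lost without pig 3, 4 or 5 (adjusted p of 0.0599 to 0.287), and without the 0h library of pig 4 (0.0584 to 0.0847). Without pig 3 or 5, 0% of all genes were called in either direction. Without pig 4 1.5% of all genes were higher, and without its 0h library 1.74%, against 3.22% in the fit reported. The call of PSMD3 was also lost with no low-count filter (1.36, adjusted p = 0.0545).

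PSMD12 in PD went from 59.5, 61.2, 18 and 40.7 CPM at 0h to 199, 93.3, 167 and 85.2 CPM at 6h and 41.8, 180, 252 and 205 CPM at 12h. The 12h library of pig 2 was the only later library within the 0h range. The log2 fold change was 1.60 (SE 0.59, adjusted p = 0.432) at 6h and 1.93 (SE 0.61, adjusted p = 0.0841) at 12h. At 6h it was called with the length trend taken out (1.37, adjusted p = 0.0327) and without both doubted libraries (1.20, adjusted p = 0.0297). Some other fits of all the PD libraries called it at 12h, DESeq2 at 1.97 (adjusted p = 0.00761) and the fit with no block at 1.92 (0.0327). The fit of all 27 libraries also called it at 1.92 (0.00608), and the fit with the length trend taken out at 1.94 (0.00232). Without the 12h library of pig 2 it was 2.43 at 12h (adjusted p = 0.00417). PSME4 was at 128, 121, 123 and 91.6 CPM at 0h and 176, 305, 477 and 338 CPM at 12h, where its log2 fold change was 1.47 (SE 0.41, adjusted p = 0.0602), and without that library 1.77 (adjusted p = 0.00574). The same other fits called PSME4 at 1.45 to 1.51 (adjusted p of 0.00376 to 0.0402). PSME3 was at 39.9, 45, 26.7 and 38.4 CPM at 0h, 38.3, 64.4, 105 and 50.5 CPM at 6h and 38.7, 140, 137 and 133 CPM at 12h, where pig 2 alone was not above its 0h value. Its log2 fold change was 0.66 (SE 0.41, adjusted p = 0.627) at 6h and 1.42 (SE 0.42, adjusted p = 0.0683) at 12h. The same other fits called PSME3 at 12h at 1.39 to 1.58 (adjusted p of 0.00303 to 0.0305), and without the 12h library of pig 2 it was 1.74 (adjusted p = 0.00694). The fits with the size factors of DESeq2 and with no low-count filter did not call PSMD12, PSME4, PSME3 or PSMB7 at 12h. Without the 12h library of pig 2 a total of 13 members rose at 12h, without the 0h library of pig 4 none did, and without both 11 did. In the fits without these libraries 12.7%, 1.74% and 11.8% of all genes were called higher.

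The immunosubunits in PD were lower at 6h than at 0h in each of the 4 pigs, short of the threshold in the fit by pig. PSMB8 had 133, 179, 392 and 182 CPM at 0h, 85.4, 112, 171 and 90.2 CPM at 6h, and 227, 104, 120 and 92.3 CPM at 12h, with log2 fold changes of -0.92 (SE 0.41, adjusted p = 0.519) and -0.64 (SE 0.42, adjusted p = 0.375). PSMB10 had 58.8, 68.9, 162 and 87.8 CPM at 0h, 43.4, 40.7, 32.4 and 33.7 CPM at 6h, and 131, 44.9, 34 and 40.8 CPM at 12h, with -1.36 (SE 0.49, adjusted p = 0.421) and -0.74 (SE 0.51, adjusted p = 0.401). For PSMB10 the 6h range lay below the 0h range, and at 12h pig 2 alone was above its 0h value. The fit of all 27 libraries called PSMB10 at 6h (-1.35, adjusted p = 0.0383), and the fit with the length trend taken out called PSMB8 at 12h (-0.75, adjusted p = 0.0356). Without the 12h library of pig 2, PSMB8 fell by 1.14 (adjusted p = 0.0194) and PSMB10 by 1.25 (adjusted p = 0.0307) at 12h, and without both doubted libraries PSMB8 alone fell, by 0.92 (adjusted p = 0.032). PSMB9 had 61.1, 85.5, 149 and 72.9 CPM at 0h, 51.9, 54.9, 106 and 47.4 CPM at 6h, and 67.9, 82.3, 132 and 66.2 CPM at 12h, with -0.50 (SE 0.28, adjusted p = 0.594) and -0.06 (SE 0.28, adjusted p = 0.914). Its 12h values lay within the 0h range. Markers of cell types were called for 0 genes of these lists in PD by edgeR, but 9 of 12 leukocyte markers were below 0 at 6h (median log2 fold change -0.27) and 11 of 12 at 12h (-0.55), the 3 red blood cell markers were below 0 at both times (medians -1.35 and -1.12), and the 6 endothelial markers were above 0 at 6h (median 0.47). Their part in the PD values was not tested.

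PSME2 in PD had 52.3, 54.8, 190 and 64.7 CPM at 0h, 59.4, 37.8, 51.2 and 26.3 CPM at 6h, and 142, 40.3, 60.5 and 64.5 CPM at 12h, and the high values were again pig 4 at 0h and pig 2 at 12h. Its log2 fold changes were -1.0 (SE 0.47, adjusted p = 0.54) and -0.21 (SE 0.47, adjusted p = 0.826). PSME1 had 15.5, 14.8, 8.61 and 15 CPM at 0h, 12, 18.6, 11.9 and 17 CPM at 6h, and 20.7, 14.9, 12 and 19.4 CPM at 12h, with 0.17 (SE 0.32, adjusted p = 0.849) and 0.32 (SE 0.32, adjusted p = 0.57). The 3 groups of PSME1 overlapped, though at 12h all 4 pigs were above their own 0h value, by log2 ratios of 0.01 to 0.48. PSMB7 had 59.7, 80.6, 33.4 and 78 CPM at 0h, 59.2, 69.4, 94.2 and 50.1 CPM at 6h, and 193, 125, 134 and 126 CPM at 12h. All 4 pigs were above the 0h range at 12h, where the log2 fold change was 1.20 (SE 0.38, adjusted p = 0.0818). PSMB7 was called there by DESeq2 (1.25, adjusted p = 0.0153), with no block (1.20, 0.0357), in the fit of all 27 libraries (1.20, 0.0036) and with the length trend taken out (1.10, 0.0237). The log2 ratio of PSMB10 to PSMB7 was -0.23 to 2.28 at 0h, -1.54 to -0.45 at 6h and -1.98 to -0.56 at 12h in PD.

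Between 6h and 12h in PD, edgeR called 0 members and 0% of all genes, DESeq2 called 2 members higher against 0.714% of all genes, and 12 members had an unadjusted p under 0.05 against 10% of all genes. The median difference was 0.69, with 39 of 40 members above 0. The smallest unadjusted p among the members was that of PSMD7, with a difference of 1.25 (SE 0.35, adjusted p = 0.392).

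**Figure D4:**
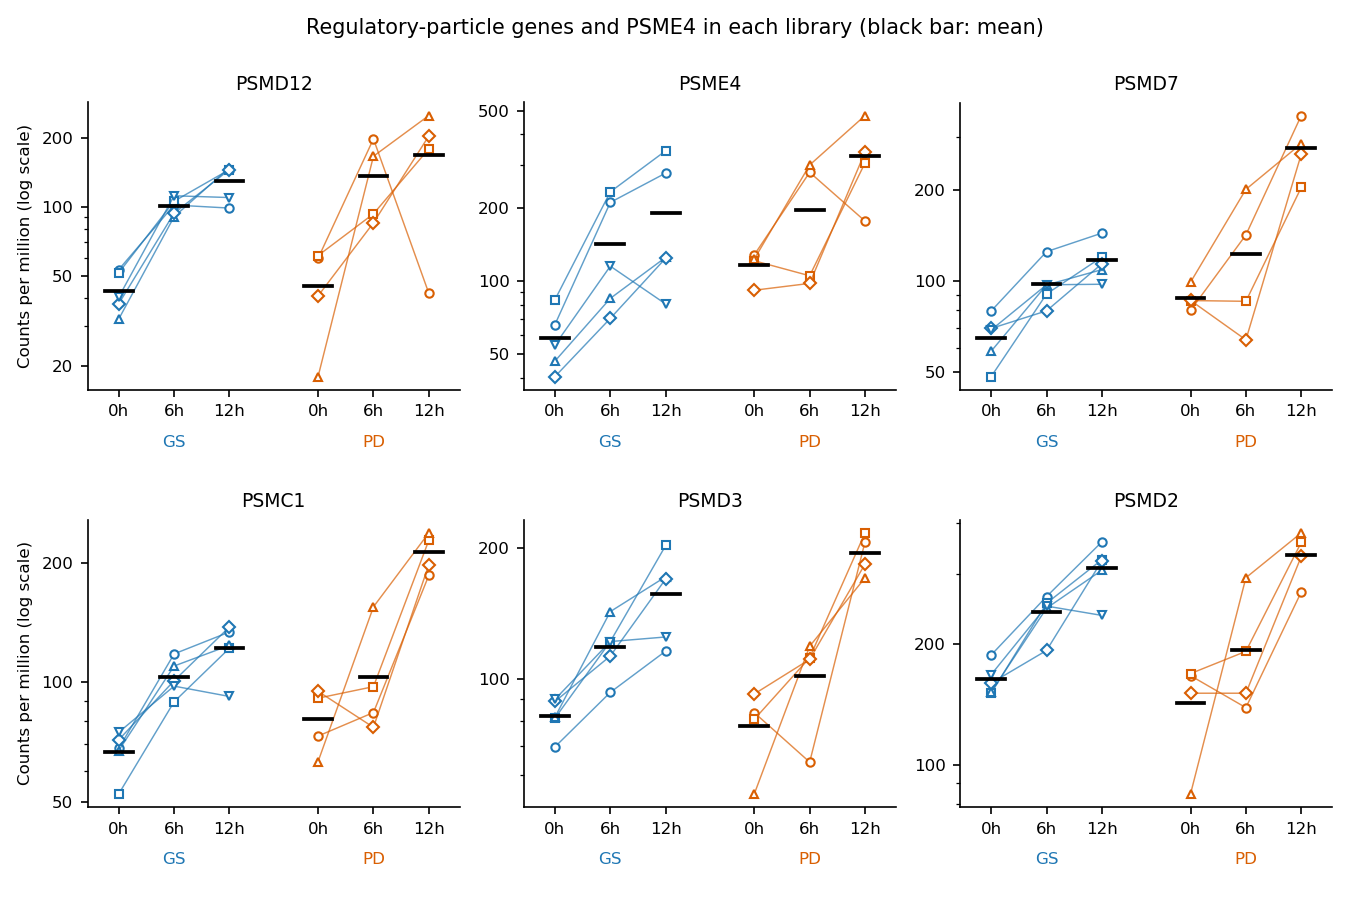
Level of PSMD12, PSME4, PSMD7, PSMC1, PSMD3 and PSMD2 in each of the 27 libraries, in CPM on a log axis, by group and time. Each line joins the libraries of 1 pig (GS blue, PD orange) and the black bar is the mean. For PSMD7, PSMC1 and PSMD3 all 4 PD values at 12h are above all 4 at 0h, and for PSMD12 the 12h value of PD pig 2, 41.8 CPM, falls within the 0h range.

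Whether the change differed between PD and GS was tested as the interaction of group and time over all 27 libraries. At 6h, edgeR and DESeq2 each called 0 members (edgeR 0% of 17884 genes), with 3 members at an unadjusted p under 0.05 against 5.85% of all genes. At 12h both called 0 (edgeR 0%), with 1 member, PSMD7, against 5.98%. The change of PSMB3 from 0h to 6h was 1.08 lower in PD on the log2 scale (-1.08, SE 0.40, adjusted p = 0.783), and passed only without PD pig 2 (-1.44, adjusted p = 0.0345). That of PSME2 at 6h was -1.02 (SE 0.44, adjusted p = 0.783), and that of PSMD7 at 12h was 0.77 (SE 0.32, adjusted p = 0.791). For PSMB8, PSMB9 and PSMB10 the interaction estimates at 6h were -0.52 (SE 0.38), 0.11 (SE 0.27) and -0.85 (SE 0.45), and those at 12h were -0.29 (SE 0.38), 0.49 (SE 0.27) and -0.32 (SE 0.46). None passed the test (adjusted p of 0.783 to 0.956).

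The change from 0h of the single pigs, as a log2 ratio, did not overlap between PD and GS for 2 of 40 members at 6h, PSMA7 and PSMB4, and for 1 at 12h, PSMD4. Over all genes this was so for 3.12% and 2.09%. These 3 are named after their values were seen. For the alpha subunit PSMA7 at 6h the ratios of the 5 GS pigs were 0.13 to 0.31 and those of PD pigs 2, 3, 4 and 5 were -0.14, 0.12, -1.27 and -0.74. For PSMB4 at 6h the ratios of the 5 GS pigs were 0.40 to 0.59 and those of the PD pigs 0.38, -0.48, 0.28 and -0.97. For PSMD4, the ubiquitin receptor Rpn10, at 12h the GS ratios were -0.11 to 0.20 and the PD ratios 0.51, 0.59, 2.67 and 0.20, where the nearest values of the groups differed by less than the rounding.

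Before perfusion the groups already differed. At 0h, 27 of the 40 members were higher and 2 lower in PD than in GS, against 21.3% and 19.3% of the 16477 genes tested, and the median log2 difference was 1.11 against 0.00 over all genes. Of the 40 members, 23 were called higher with a difference of at least 2-fold, against 15.2% of all genes. PSMB3 was 8.21-fold higher, with 26.5, 28.6, 24.2, 20.4 and 21.9 CPM in the GS pigs and 144, 161, 296 and 173 CPM in the PD pigs (log2 difference 3.04, SE 0.25, adjusted p = 8.5e-06). PSMG2 (PAC2), named above as the lowest tested member per kilobase in GS, had 5.06, 10.1, 6.06, 6 and 5.6 CPM in GS and 38.6, 42, 24.5 and 29.4 CPM in PD (2.40, SE 0.26, adjusted p = 4.15e-05). PSME2 was higher by 2.49 (SE 0.37, adjusted p = 0.000311), with 14.7 to 20.1 CPM in GS and 52.3, 54.8, 190 and 64.7 CPM in PD pigs 2, 3, 4 and 5. The doubted 0h library of pig 4 lay far above the other PD values and makes this difference larger. For these genes the groups did not overlap.

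Of the immunoproteasome genes, PSMB8, PSMB9 and PSME1 were also higher in PD at 0h, by 1.45 (SE 0.28, adjusted p = 0.0018), 1.10 (SE 0.25, adjusted p = 0.00471) and 0.91 (SE 0.25, adjusted p = 0.0114), while PSMB10 was at 0.63 (SE 0.29, adjusted p = 0.108). PSMB7 was at 0.57 (SE 0.25, adjusted p = 0.0857) and was called without PD pig 4 (0.78, adjusted p = 0.00527). The lower members were PSMD11, with 50.1, 46.6, 21 and 35.6 CPM in PD (-1.16, SE 0.25, adjusted p = 0.0029), and PSME3, with 39.9, 45, 26.7 and 38.4 CPM (-1.03, SE 0.22, adjusted p = 0.00262). A RefSeq exon length was found for all 40 members but for only 12312 of the 16477 genes tested (74.7%), so what follows does not cover the rest. With those genes split into 4 equal groups by exon length, 32 of the 40 members fell in the shortest group (at most 2258 bases), and the median difference over the genes was 0.69 in that group, 0.06 and -0.22 in the middle groups and -0.45 in the longest. The members had medians of 1.24 in the shortest group, 0.38 over the 6 in the next and 0.10 and 1.03 for the single members in the others. The members with longer exons went both ways. PSMA3 (2799 bases, 1.67), PSMD6 (3617 bases, 1.52), PSMD1 (3253 bases, 0.92) and PSME4 (7754 bases, 1.03) were higher. PSMD11 (3068 bases, -1.16) and PSME3 (3400 bases, -1.03) were lower, and PSMD2 (2948 bases, -0.16) and PSMD12 (3827 bases, 0.10) were not called. After a trend on exon length and GC content was taken out of the differences, an alternative chosen after seeing the data and fitted on the genes with a RefSeq exon length alone (12345 after the low-count filter was applied to them anew), 19 members were higher and 5 lower in PD, against 22.8% and 17.5% of those genes. PSMB3 was then at 1.88 (adjusted p = 0.000114), PSMB8 at 0.81 (adjusted p = 0.0231), PSMB9 at 0.35 (adjusted p = 0.24), PSMB10 at -0.15 (adjusted p = 0.587), PSME2 at 1.36 (adjusted p = 0.00585), PSMG2 at 1.28 (adjusted p = 0.0016) and PSME1 at -0.01 (adjusted p = 0.985). Others moved little or grew, with PSMD11 at -1.19 (adjusted p = 0.000798), PSME3 at -0.99 (adjusted p = 0.000863) and PSME4 at 1.33 (adjusted p = 0.000798).

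The groups also differed at 0h in markers of cell types. The summed red blood cell markers were at 51.7 to 237 CPM in PD and 0.355 to 10.4 CPM in GS. Of the leukocyte markers 6 of 12 were lower and 2 higher in PD, of the fibroblast and smooth muscle markers 4 of 6 were lower and 0 higher, of the endothelial markers 3 of 6 were lower and 1 higher, and of the epithelial markers 2 of 9 were higher and 1 lower, read against the 19.3% and 21.3% of all genes given above. The median log2 difference was -0.70 for the leukocyte markers and 1.10 for the immunoproteasome genes. The part of these in the result was not tested. The groups differed too in depth, and the PD lungs, unlike the GS lungs, were also part of an earlier study. The RNA extraction possibly differed as well, since a pair of kits was used and the kit of each library was not given in the sources used here. These cannot be told apart from the group, and the 0h difference is a difference between these libraries.

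**Figure D5:**
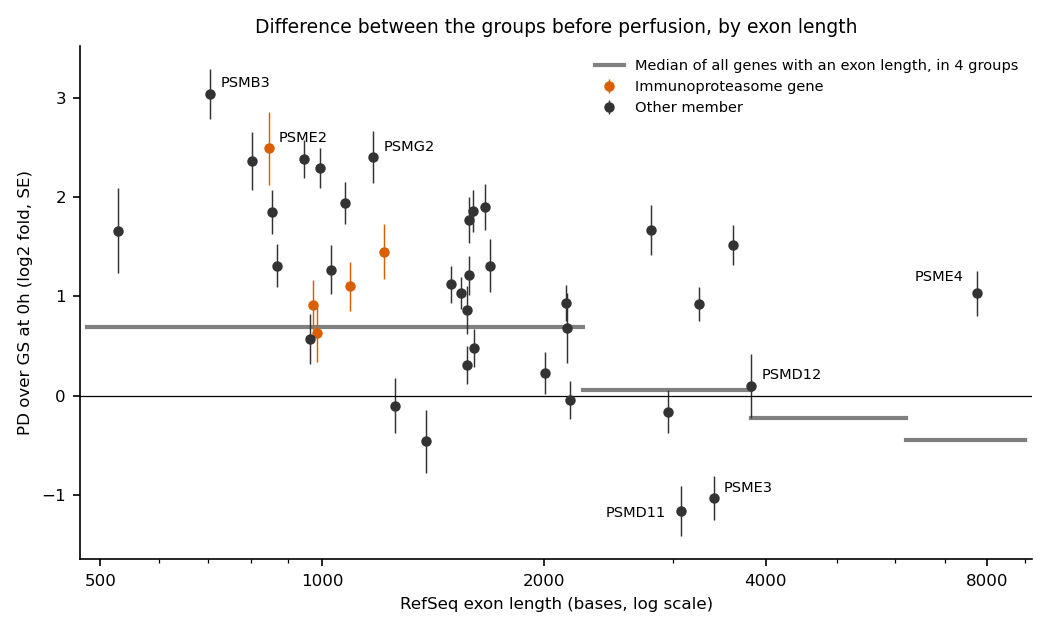
Difference between PD and GS at 0h (log2 fold, with SE) of the 40 members tested against their exon length in bases on a log axis. Grey lines are the medians of the 12312 genes with an exon length, in 4 groups of that length, drawn over the plotted range. Most members lie at the left, where the grey line is at 0.69, and PSMD11 and PSME3 lie below 0.

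Genes that work with the proteasome were followed in lists. Their counts are to be read against all genes tested, of which 13.6% rose and 14.9% fell at 6h and 17.6% rose and 20.8% fell at 12h in GS, and 3.22% rose and 2.76% fell at 12h in PD, with median log2 fold changes of -0.05, -0.08 and -0.05. In lists of 5 to 9 genes, 1 or 2 genes that fell in GS are near these shares. Of 9 partners that lack a PSM name, 3 rose and 1 fell at 6h in GS and 5 rose and 1 fell at 12h. POMP, the maturation factor of the 20S core, rose by 0.89 (SE 0.24, adjusted p = 0.0167) and 1.11 (SE 0.24, adjusted p = 0.00382), and PAAF1, which binds free 19S ATPases, fell by 0.85 (SE 0.20, adjusted p = 0.0087) and 0.96 (SE 0.20, adjusted p = 0.00316). In PD at 12h PAAF1 was the only one of these called, at -1.63 (SE 0.42, adjusted p = 0.0437).

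The NRF1 list held the factor, the enzymes that extract and process it and its small Maf partners. Of 8 genes, 4 rose at 6h and 7 at 12h in GS, where 13.6% and 17.6% of all genes did, with a median log2 fold change of 0.46 and 0.50 against -0.05 and -0.08. NFE2L1 itself was at 0.29 (SE 0.11, adjusted p = 0.0626) and rose by 0.38 (SE 0.11, adjusted p = 0.0157). UFD1, a cofactor of the unfoldase VCP, rose by 0.62 (SE 0.14, adjusted p = 0.00611) and 0.89 (SE 0.14, adjusted p = 0.000522), and MAFF by 1.72 (SE 0.34) at both times (adjusted p = 0.00343 and 0.00225). In PD, MAFF alone of the list rose at 6h (3.14, SE 0.39, adjusted p = 0.0176), where 0.135% of all genes did. At 12h in PD MAFF (2.90, SE 0.39, adjusted p = 0.0136) and UFD1 (1.22, SE 0.32, adjusted p = 0.0484) rose.

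Of 9 shuttles and adaptors of ubiquitin, 3 rose and 1 fell at 6h and 5 rose and 1 fell at 12h in GS, and 4 rose in PD at 12h, where 3.22% of all genes did. ZFAND5, which binds the 26S proteasome, rose by 1.51 (SE 0.17, adjusted p = 0.000208) and 1.61 (SE 0.17, adjusted p = 7.14e-05) in GS and by 2.09 (SE 0.37, adjusted p = 0.0179) at 12h in PD. SQSTM1 (p62), which takes ubiquitinated cargo to autophagy, rose by 1.0 (SE 0.15, adjusted p = 0.000766) and 1.30 (SE 0.15, adjusted p = 0.000104) in GS and by 1.59 (SE 0.34, adjusted p = 0.0283) at 12h in PD. Of 5 genes of ubiquitin and its activating enzymes, 0 rose and 1 fell at 6h and 1 rose and 1 fell at 12h in GS, near the shares of all genes. The gene that fell was the E1 enzyme UBA6, at -0.57 (SE 0.16, adjusted p = 0.0163) at 6h and -1.07 (SE 0.16, adjusted p = 0.000407) at 12h.

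Of 9 interferon regulators of the immunoproteasome, 3 rose and 2 fell at 6h in GS, and 4 rose and 2 fell at 12h, where 14.9% and 20.8% of all genes fell. NLRC5, the transactivator of MHC class I genes, fell by 0.62 (SE 0.14, adjusted p = 0.00739) and 0.55 (SE 0.14, adjusted p = 0.0093). IRF1, which induces PSMB9 and PSMB8, rose by 1.10 (SE 0.32, adjusted p = 0.0231) and 1.16 (SE 0.33, adjusted p = 0.0139). In PD at 12h IRF1 was the only gene of the list called, at 2.86 (SE 0.41, adjusted p = 0.0149). Among 9 genes of MHC class I peptide loading, 2 fell and 0 rose at 6h and 2 fell and 3 rose at 12h in GS, near the shares of all genes. The trimming peptidase ERAP1 fell by 0.72 (SE 0.14, adjusted p = 0.00284) and 0.61 (SE 0.14, adjusted p = 0.00453), while the transporter gene TAP1, the divergent neighbour of PSMB9, was at -0.09 (SE 0.13, adjusted p = 0.632) and -0.02 (SE 0.13, adjusted p = 0.892).

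Several members share their place in the genome with other gene models, and reads there may have been split. In the Ensembl models of the gene table, PSMB8 at chr7:25053132-25073046 on the minus strand overlapped TAP1 and TAP2 on the same strand and PSMB9 at chr7:25055594-25078594 on the plus strand, all within the MHC region. PSMB10 at chr6:28540807-28548152 on the minus strand overlapped CTRL, and PSME1 at chr7:75148754-75171146 on the minus strand overlapped RNF31, FITM1 and DCAF11 on its own strand and PSME2 on the other. The RefSeq models of PSMB8 and PSMB9, and those of PSME1 and PSME2, do not overlap. The libraries kept the strand, but the strand setting of the counting was not given in the sources used here. Of the 42 members, 16 overlapped no other model. Of the 15 of these tested, 7 rose and 0 fell at 6h in GS, and 9 rose and 0 fell at 12h. Of the 16 that overlapped a model on the opposite strand alone, 6 rose and 1 fell at 6h and 9 rose and 2 fell at 12h, and of the 9 tested with an overlap on the same strand, 3 rose and 2 fell and then 4 rose and 2 fell. Every member called lower in GS thus lay in an overlapping model, while 14.9% and 20.8% of all genes were lower and 13.6% and 17.6% higher. The levels of PSMB8, PSMB9, PSMB10, PSME1 and PSME2 are therefore less certain than those of PSMC6 or PSMD7.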

How the data were processed

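Lung biopsies of 9 pigs were measured by RNA-seq at 0h, 6h and 12h. The authors trimmed reads with cutadapt 1.15, aligned them with TopHat2 2.0.14 to the pig genome Sscrofa11.1 with Ensembl genes, and counted them per gene with featureCounts (Subread 1.6.0), and the deposited table holds these raw counts. The strand setting of the counting was not given in the sources used here, which bears on members that overlap other genes. Values of 1 gene of the interferon list are not reported here. The members and gene lists were chosen with earlier results of these data known.

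Counts were tested with edgeR 4.0.16 in R 4.3.3 (quasi-likelihood test, robust, TMM scaling, low-count filter filterByExpr) over all genes, with Benjamini-Hochberg adjustment over all genes tested. Each group was fitted on its own with the pig as a block, since the 3 libraries of a pig come from the same animal. Residuals of libraries of the same pig correlated at 0.513 on average in GS (0.344 to 0.73) and at 0.112 in PD (-0.265 to 0.462). The difference of the changes was fitted on all 27 libraries, and PD against GS at 0h on 9 libraries without a block. A gene was called at an adjusted p under 0.05. Pigs are separate animals. CPM are per TMM-scaled library. Log2 ratios within a library or pig used 0.5 counts added. The scripts were tested on simulated data.

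Values per library were given for the immunoproteasome genes, PSMB7, PSME3 and up to 3 members with the largest change in each direction among those called in a comparison. PSMA7, PSMB4, PSMD4 and any other member given with values were chosen after their values were seen. Alternatives were DESeq2 1.42.0, its size factors, no filter, no replicate block, 1 fit of all libraries, an exact Wilcoxon test for the interaction, leaving out each pig and the 2-fold threshold. Taking out a trend on transcript length and base composition and leaving out PD libraries were added after seeing the data. Upstream windows, exon lengths and GC content came from the RefSeq annotation of Sscrofa11.1. Intervals on low counts cover counting error only.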

Additional observations from a re-analysis of the deposited data

Results flagged for a closer look

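Of 96 groups of 4 or 5 libraries tested for a library far from the others (Dixon's test at 95%), 16 held one, where chance gives about 1 in 20. In GS, pig 17 was apart most often. It was lowest for PSMB8 at 12h (46.9 CPM), for PSMB7 at 0h (31.8 CPM) and for PSME3 at 0h (53.4 CPM) and 6h (75.9 CPM), and highest for PSMG2 at 0h (10.1 CPM) and 6h (11.3 CPM). The other GS values were PSMB8 in pig 44 at 6h (51.6 CPM, lowest), PSME1 in pig 9 at 0h (5.09 CPM, lowest) and PSMD2 in pig 55 at 6h (193 CPM, lowest).

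In PD, most values came from the libraries that stood apart. At 0h, pig 4 was highest for PSME2 (190 CPM) and lowest for PSME1 (8.61 CPM) and PSMD2 (84.7 CPM), in opposite directions for the subunits of PA28. At 12h, pig 2 was highest for PSMB7 (193 CPM) and lowest for PSME3 (38.7 CPM), and at 6h it was lowest for PSMD3 (64.4 CPM). PSME4 was lowest in pig 5 at 0h (91.6 CPM).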

How the results depend on the processing

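In GS at 6h, where 16 members were higher and 3 lower, 2 and 0 also met the 2-fold threshold, 4 and 1 were called with no replicate block (libraries not paired by pig) and 1 and 1 in 1 fit of all libraries, where the calls over all genes went from 13.6% and 14.9% to 5.62% and 3.69% and to 4.84% and 4.14%. Leaving out a pig gave 9 to 15 higher and 1 to 3 lower, against 7.81% to 13.8% and 7.05% to 11.8% of all genes. Without pig 44 there were 9 and 1 (7.81% and 7.05%). At 12h, where 22 were higher and 4 lower, these counts were 2 and 0, 13 and 1, and 10 and 1. Over all genes 9.15% and 7.43% were called with no block and 8.42% and 7.7% in 1 fit, against 17.6% and 20.8%. On leaving out a pig the counts were 18 to 22 and 1 to 3, against 12.4% to 20.3% and 12.9% to 20% of all genes. Without pig 9 there was 1 lower (20% of all genes). In PD at 6h, 1 member was higher with the trend removed and 1 without both doubted libraries, against 1.29% and 2.12% of all genes. In 1 fit of all libraries 1 was lower, against 0.883% of all genes. In PD at 12h, where 3 were higher and 0 lower, DESeq2 gave 12 higher and no replicate block 10. The fit of all libraries gave 17 (and 1 lower), and the trend removed 15 (and 1 lower). In these fits 9.44%, 5.37%, 11.2% and 12.8% of all genes were higher, against 3.22% in the fit reported. In the fits with 1 lower, 11.6% and 10.5% of all genes were lower. Leaving out the 12h library of pig 2 gave 13 (and 2 lower), against 12.7% of all genes higher and 14.7% lower. Leaving out the 0h library of pig 4 gave 0, against 1.74% higher. Leaving out both gave 11 (and 1 lower), against 11.8% higher and 11% lower. Leaving out a pig gave 0 to 11 (and 0 to 2 lower). The share of all genes called went from 0% without pig 3 or 5 to 12.5% higher and 13% lower without pig 2. Between 6h and 12h in PD, DESeq2 gave 2 higher, 1 fit of all libraries 6, and leaving out both libraries 5 (0.714%, 1.39% and 2.04% of all genes). The interaction at 6h gave 0 to 1 lower on leaving out a pig, against 0% to 0.495% of all genes. With the trend removed, PD was lower than GS at 0h for 5 members, and PSME1 (-0.01) and PSMD12 (-0.47) turned sign, as did 5 named members called in neither fit, PSMB7 (-0.45), PSMB10 (-0.15), PSMC1 (-0.28), PSMD7 (-0.16) and PSMD3 (0.02). The cause was not tested. Of 176 values of named members in GS at 6h, 143 kept their side of the threshold and 30 lost their call, and at 12h 157 of 176 and 19. In PD at 12h, 150 of 208 kept their side, 13 lost a call and 45 gained one. No value called in either fit changed direction there. The PD group, with 14650700 to 21820935 counts and 4 pigs, limits what the interaction can show.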
